A study of Mus musculus with 8 samples.

Results

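Klf2, Klf4, Nos3, Thbd, Edn1, Ece1, Piezo1, Nfatc1 and Npr3 are genes by which the lining of the heart and vessels senses and answers blood flow, or by which the endocardium is recognised. These 9 genes were chosen by name out of the 55291 gene symbols of the count table, and all 9 passed the filter on low counts. RNA came from ventricular tissue of mouse embryos on a C57BL/6N background at E10.5. The cKO group held 4 libraries from Pkn2 fl/fl embryos carrying XMLC2-Cre, which recombines the floxed Pkn2 allele in cardiomyocytes. The control group held 4 libraries from Cre-negative Pkn2 fl/fl littermates, so that both groups carried the floxed allele and only cKO embryos carried the Cre transgene. The labels call each library a biological replicate but do not say how many hearts went into one.

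Flowing blood drags on the endocardium and on vessel endothelium. Mechanosensors such as the cation channel PIEZO1 register that force, and a kinase cascade through MEKK3 and ERK5 activates MEF2 factors, which switch on the transcription factors KLF2 and KLF4. These in turn raise Nos3 (endothelial nitric oxide synthase) and Thbd (thrombomodulin, an anticoagulant receptor) and hold down Edn1, the precursor of the vasoconstrictor peptide endothelin 1. In the embryonic heart, Klf2 marks endocardium under high shear, and Nfatc1 and Npr3 are widely used markers of endocardial cells. Klf2, Nos3, Nfatc1 and Npr3 are expressed mainly in endothelial or endocardial cells, whereas the Cre line acts in cardiomyocytes.

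Libraries held 47559845 to 56660938 counts. Pkn2 was at 83.1, 77.6, 79.6 and 84.3 CPM (counts scaled by the TMM-adjusted library size) in cKO replicates 1 to 4 and at 133, 139, 152 and 153 CPM in control replicates 1 to 4, without overlap (log2 fold change -0.83, adjusted p = 7.67e-06, edgeR). The ventricular gene Myl2 was at 4410 to 5380 CPM in the 8 libraries and the atrial gene Sln at no more than 0.0714 CPM. Of 9 ventricular cardiomyocyte markers 8 had negative log2 fold changes, Hey2 fell (-0.46, adjusted p = 0.00171, edgeR), and Irx4 (-0.25) and Nkx2-5 (-0.32) were lower without overlap. The 5 atrial markers summed to 42.3 to 53.4 CPM in the cKO group and 37.1 to 39.2 CPM in the control group. Among them, Nr2f2 (log2 fold change 0.43) and Stard10 (0.39) had positive values and Nr2f1 (-0.26) and Kcna5 (-0.25) negative ones. None of the 5 was called. The tissue also held endothelial RNA, with Cdh5 at 171 to 353 CPM. Among the 20 endothelial markers used for comparison below, none of which is among the 9 genes, all had a positive log2 fold change, with a median of 0.40, and 7 rose in cKO. Their summed level was 1910 to 2490 CPM across cKO libraries and 1490 to 1780 CPM across controls, and their mean log2 CPM stood 0.64, 0.25, 0.21 and 0.75 above the control mean in cKO replicates 1 to 4. In bulk tissue, more cells of a type and more RNA per cell cannot be told apart. The 8 macrophage markers summed to 35.9, 10.8, 8.21 and 19.3 CPM in cKO replicates 1 to 4 and to 4.29 to 9.06 CPM in controls, with none of them at 0 throughout a group. All 8 had positive log2 fold changes, and C1qb and C1qc were called. The 6 epicardial markers, 5 of them negative, summed to 276 to 393 CPM in cKO and 369 to 409 CPM in controls. The 7 erythroid markers summed to 1350 to 4760 CPM in cKO and 1490 to 4600 CPM in controls. No epicardial or erythroid marker was called.

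The regulatory sequence just upstream of the starts of Klf2 and Edn1 is shown because KLF2 and endothelin 1 stand at opposite ends of the flow response and their cKO means lay on opposite sides of the control mean. Neither gene was called (adjusted p = 0.596 for Klf2 and 0.108 for Edn1, edgeR), and both overlapped between the groups. Promoter windows were taken from RefSeq (GRCm38.p6) for 6 of the 9 genes, namely Klf2, Klf4, Ece1, Piezo1, Edn1 and Npr3. Both sequences run 5′ to 3′ on the plus strand, from chr8:72318812-72319032 for Klf2 and chr13:42301226-42301475 for Edn1. Capitals mark the single match to the MEF2 consensus in Klf2 and the 2 matches to CACCC, the core bound by Krüppel-like factors, in Edn1, where both lie on the minus strand and read as GGGTG.
Klf2: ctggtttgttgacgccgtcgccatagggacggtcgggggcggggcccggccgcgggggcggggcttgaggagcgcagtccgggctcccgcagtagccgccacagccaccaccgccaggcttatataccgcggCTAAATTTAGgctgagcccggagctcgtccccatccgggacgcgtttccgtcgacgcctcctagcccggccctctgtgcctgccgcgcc
Edn1: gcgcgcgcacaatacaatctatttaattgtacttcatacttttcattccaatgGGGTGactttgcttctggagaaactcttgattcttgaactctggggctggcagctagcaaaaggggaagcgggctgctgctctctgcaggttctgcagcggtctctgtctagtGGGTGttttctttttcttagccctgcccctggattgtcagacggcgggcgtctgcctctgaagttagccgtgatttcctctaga

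The MEF2 match of Klf2 began 118 bases before the RefSeq start. The printed Klf2 sequence ends before that start, because it was cut where the gene begins in the deposited annotation. Searched on both strands over the 250 bases before the start, such a match was present in 0.513% of 32536 promoters. CACCC was present in 52.1% of them, so its presence at Klf2, Ece1, Piezo1, Edn1 and Npr3 is common. At Klf2 the CACCC match lies past the end of the printed sequence. Among the other motifs searched, GGAAA (the NFAT core, in 55.7% of promoters) matched at Klf2, Edn1 and a pair of the Ece1 starts. The AP-1 site TGANTCA, in 6.73% of promoters, had no match at the 6 genes. Nor had AGATAA, the element of the zinc finger factors that pattern heart and endothelium, which 9.97% of promoters held. The Klf4 window held none of the 5 motifs. No window of Nos3, Thbd or Nfatc1 was searched, so these motif results do not cover those genes. These are matches of letters and not measured binding.

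Per length, the 9 genes spanned a wide range of levels. Ece1, which encodes the protease that cuts big endothelin to the active peptide, was the highest, at 175 ± 14.8 TPM in cKO and 146 ± 15.5 TPM in controls (transcripts scaled by length and library total, mean ± SD, n = 4 each). Npr3 came next at 76.7 ± 2.94 and 68.7 ± 4.79 TPM, followed by Nos3 at 44.7 ± 3.76 and 36.1 ± 4.37 TPM and Piezo1 at 42.8 ± 6.18 and 36.1 ± 3.15 TPM. Nfatc1 was at 32.8 ± 3.97 and 25.1 ± 1.28 TPM, and Klf2 at 17.1 ± 2.81 and 19.1 ± 2.52 TPM. The lowest were Edn1 (10.8 ± 3.99 and 6.26 ± 0.868 TPM), Thbd (5.85 ± 1.33 and 6.38 ± 0.637 TPM) and Klf4 (4.12 ± 0.81 and 4.15 ± 0.124 TPM).

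Each gene in that order was above the next in all 8 libraries, except at a pair of places. Nos3 was above Piezo1 in 6 of 8 libraries, so these neighbours did not differ beyond their spread. Edn1 was above Thbd in 4 of 4 cKO libraries but in 2 of 4 control libraries, so the endothelin precursor and thrombomodulin genes did not differ beyond their spread in controls. The plot of TPM by library shows this order.

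**Figure D1:**
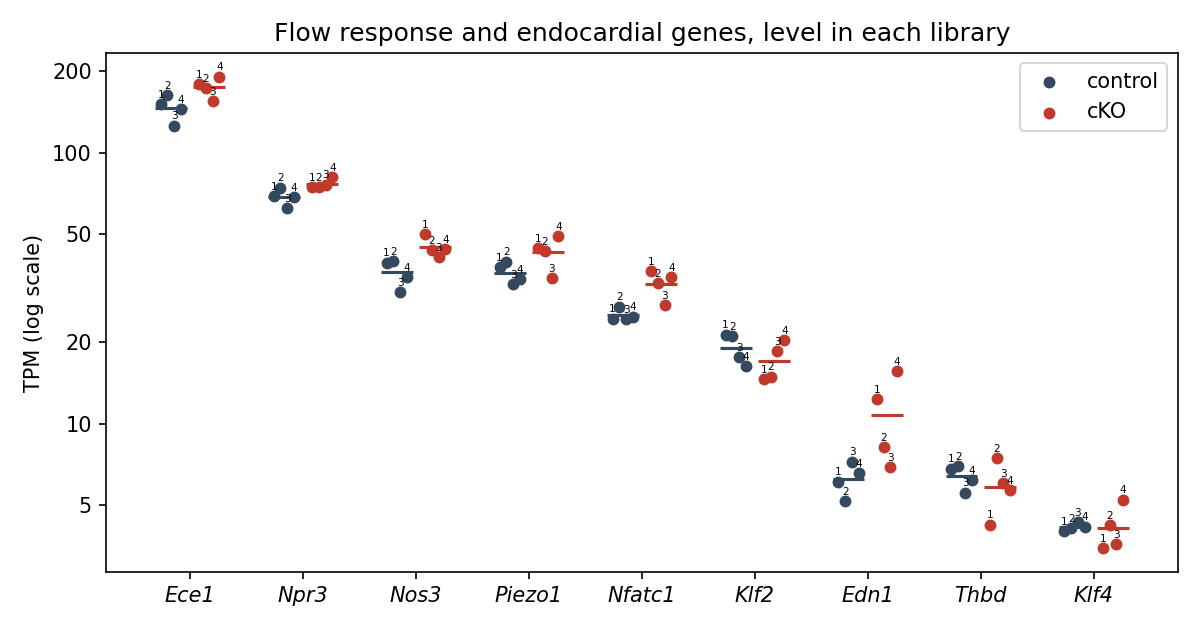
TPM of the 9 genes in each library on a log scale, ordered by mean level, with control libraries in dark blue, cKO libraries in red, replicate numbers beside the points and horizontal lines at the group means. Ece1 was highest and Klf4 lowest in every library, and the cKO points of Edn1 spread from 6.89 to 15.6 TPM.

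Differences between the groups were small for most of the 9 genes, and only Nfatc1 passed the threshold (quasi-likelihood test of edgeR, Benjamini-Hochberg adjusted p of at most 0.05 over all genes tested). That is 1 of 9, where 0.858% of the 26820 genes tested were called, and 0.515% were called with higher values in cKO. Of the 9 log2 fold changes, 6 were positive and 3 negative, with a median of 0.23. The median over all genes tested was -0.001. In Nfatc1, Nos3 and Npr3 every cKO library was above every control library, and such a separation was found in 3.14% of all genes tested in this direction, 3.77% in the lower direction and 6.91% in either.

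**Figure D2:**
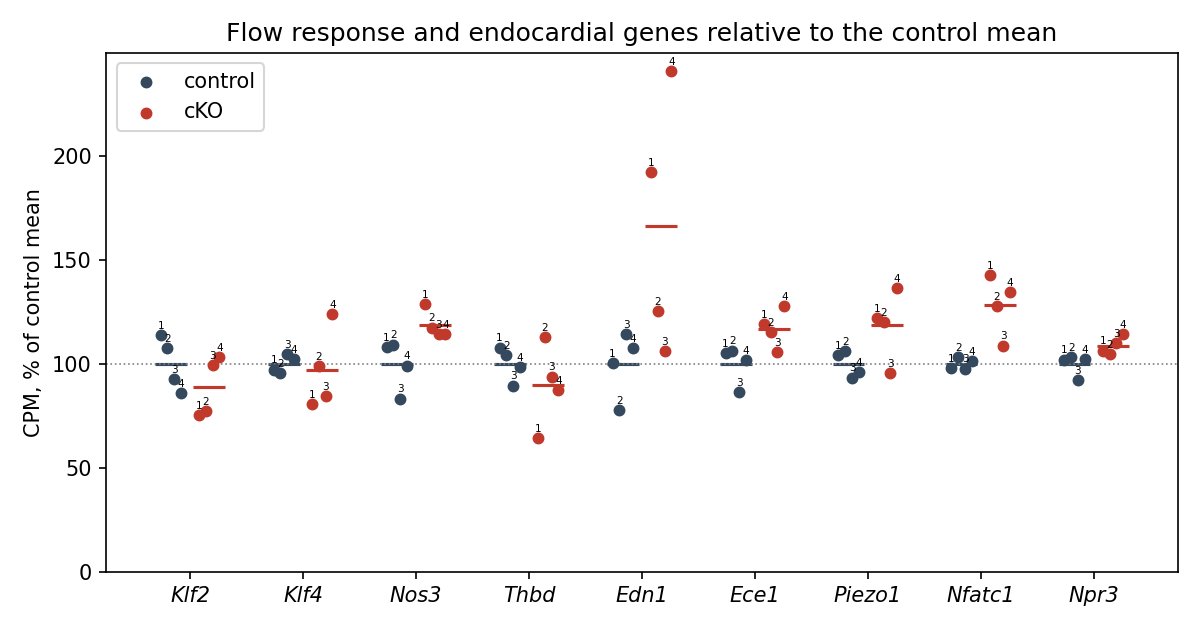
CPM of each gene in each library as a percentage of the gene's control mean (dotted line at 100), with control libraries in dark blue, cKO libraries in red, replicate numbers beside the points and lines at the group means. Nos3, Nfatc1 and Npr3 show no overlap between groups, Edn1 is high in cKO replicates 4 and 1, and Klf2, Klf4 and Thbd overlap.

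Nfatc1 encodes a calcineurin-dependent transcription factor of the endocardium that is needed for valve formation (ENSMUSG00000033016, chr18:80606205-80713071, minus strand, GRCm38 as in the files). Its level was 92.0, 82.5, 70.2 and 86.9 CPM in cKO replicates 1 to 4 and 63.2, 66.6, 63.1 and 65.3 CPM in control replicates 1 to 4. The lowest cKO library, replicate 3, was above the highest control library. Nfatc1 rose 1.28-fold, a log2 fold change of 0.36 (standard error 0.072, 95% interval 0.21 to 0.51, adjusted p = 0.0262).

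The call for Nfatc1 did not survive the removal of every library. The log2 fold change stayed between 0.31 and 0.43, while the adjusted p was 0.0862 without cKO replicate 1 and 0.0952, 0.0528, 0.0937 and 0.0977 without control replicates 1, 2, 3 and 4 (edgeR). It remained called without cKO replicate 2, 3 or 4. Of 11 other fits to all libraries, 8 called Nfatc1, and those that did not were limma on TPM. With limma on log2(TPM + 1) it had a log2 fold change of 0.37 and an adjusted p of 0.32. Besides the endothelial list, 6 cushion mesenchyme markers summed to 1840 to 2310 CPM in the cKO group and 1470 to 1750 CPM in the control group, of which Vcan made up the most and was the single call (log2 fold change 0.36, adjusted p = 0.0416, edgeR). The other cushion markers had log2 fold changes from -0.10 (Prrx1) to 0.15 (Postn), and none of them was called. The part of either list in the Nfatc1 value was not tested.

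Npr3, the natriuretic peptide clearance receptor and a marker of ventricular endocardium (ENSMUSG00000022206, chr15:11839896-11907287, minus strand), had 271, 267, 280 and 291 CPM in cKO replicates 1 to 4. The control replicates had 260, 263, 235 and 261 CPM. The groups did not overlap, but the gap between cKO replicate 2 and control replicate 2 was smaller than the spread within either group. The log2 fold change was 0.12 (standard error 0.056, 95% interval 0.00 to 0.24, adjusted p = 0.382), so the difference did not pass the threshold.

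Piezo1, the mechanically gated channel (ENSMUSG00000014444, chr8:122481698-122551329, minus strand), was measured at 170, 167, 133 and 190 CPM in cKO replicates 1 to 4 and at 145, 148, 130 and 134 CPM in control replicates 1 to 4. Replicates 1, 2 and 4 of the cKO group were above all controls, and cKO replicate 3 lay among them. This gave a log2 fold change of 0.25 (standard error 0.085, 95% interval 0.06 to 0.43, adjusted p = 0.21). Without cKO replicate 3 it was 0.34 and passed (adjusted p = 0.0143, edgeR). That fit called 744 genes in all, against 230 in the reported fit.

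Both transcription factor genes of the flow response overlapped between the groups. Klf2 (ENSMUSG00000055148, chr8:72319033-72321656, plus strand) had 15.6, 16.0, 20.6 and 21.4 CPM in cKO replicates 1 to 4 and 23.6, 22.3, 19.2 and 17.8 CPM in control replicates 1 to 4. The lowest values were those of cKO replicates 1 and 2, the highest those of control replicates 1 and 2, and in the remaining 4 libraries both cKO values were above both control values, so that the groups overlapped. The log2 fold change was -0.17 (standard error 0.11, 95% interval -0.41 to 0.07, adjusted p = 0.596). It was -0.096 without cKO replicate 1 and -0.10 without cKO replicate 2 or control replicate 1.

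Klf4 (ENSMUSG00000003032, chr4:55527143-55532466, minus strand) was at 5.85, 7.19, 6.14 and 8.98 CPM in cKO replicates 1 to 4. The control libraries lay close together, at 7.06, 6.93, 7.60 and 7.43 CPM, with cKO libraries on either side of them. Its log2 fold change was -0.04 (standard error 0.13, 95% interval -0.33 to 0.24, adjusted p = 0.946), and its sign turned when cKO replicate 1 (0.043) or cKO replicate 3 (0.021) was left out.

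Nos3 and Thbd, targets of these factors, had log2 fold changes of opposite sign. Nos3 (ENSMUSG00000028978, chr5:24364810-24384474, plus strand) was at 66.4, 60.6, 58.9 and 59.0 CPM in cKO replicates 1 to 4 and at 55.8, 56.4, 43.0 and 51.2 CPM in control replicates 1 to 4, without overlap. The log2 fold change was 0.25 (standard error 0.078, 95% interval 0.08 to 0.41, adjusted p = 0.16). Thbd (ENSMUSG00000074743, chr2:148404466-148408188, minus strand) had 8.77, 15.4, 12.8 and 11.9 CPM in cKO replicates 1 to 4 and 14.7, 14.2, 12.2 and 13.4 CPM in control replicates 1 to 4.

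Both the lowest and the highest Thbd value belonged to the cKO group, in replicates 1 and 2. Its log2 fold change was -0.16 (standard error 0.13, 95% interval -0.44 to 0.12, adjusted p = 0.708). Without cKO replicate 1 it was -0.025, and without cKO replicate 2 it was -0.28.

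The endothelin pair had positive values. Edn1 (ENSMUSG00000021367, chr13:42301476-42307990, plus strand), which KLF2 is known to hold down, had 13.9, 9.06, 7.67 and 17.4 CPM in cKO replicates 1 to 4 and 7.26, 5.62, 8.27 and 7.77 CPM in control replicates 1 to 4. The cKO mean rested on replicates 4 and 1, while cKO replicate 3 lay within the control range. The log2 fold change of 0.73 was the largest of the 9 (standard error 0.20, 95% interval 0.30 to 1.17), and it did not pass (adjusted p = 0.108).

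That value of Edn1 was 0.51 without cKO replicate 4 (adjusted p = 0.241) and 0.90 without cKO replicate 3, which passed (adjusted p = 0.0177, edgeR). The fit without cKO replicate 3 called 744 genes in all, against 230 in the reported fit. A list of 13 immediate early and heat shock genes summed to 254, 248, 250 and 296 CPM in cKO replicates 1 to 4 and to 221 to 244 CPM in controls, with Egr1 as its single call (log2 fold change 0.58, adjusted p = 0.0249). The part of this list and of the macrophage markers in the Edn1 values was not tested.

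Ece1 (ENSMUSG00000057530, chr4:137862237-137965229, plus strand) was at 462, 447, 410 and 496 CPM in cKO replicates 1 to 4 and at 408, 413, 336 and 395 CPM in control replicates 1 to 4. Only cKO replicate 3 fell below a control library, control replicate 2. For Ece1 the log2 fold change was 0.23 (standard error 0.074, 95% interval 0.07 to 0.38, adjusted p = 0.174). With DESeq2 the same value of 0.23 passed (adjusted p = 0.0458, Wald test).

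**Figure D3:**
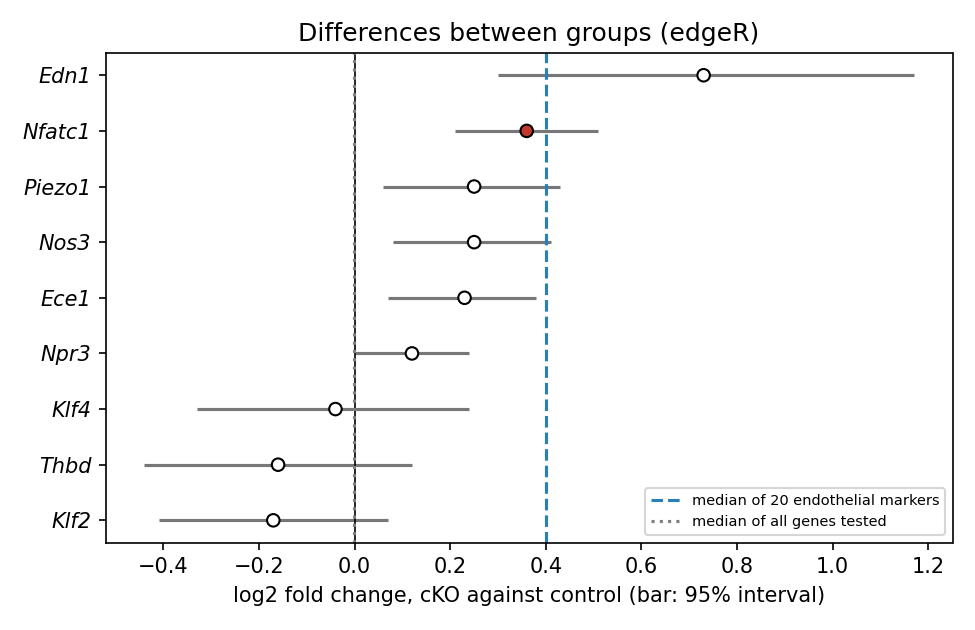
Log2 fold change of each gene (cKO against control) with its 95% interval, the filled point being the gene past the threshold. Nfatc1, at 0.36, is the filled point, the dashed line marks the median of the 20 endothelial markers at 0.40, and the intervals of Klf2, Klf4, Thbd, Npr3 and Ece1 end below that line.

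The libraries did not share these values evenly. Replicate 4 was the highest of the 4 cKO libraries for 6 of the 9 genes, and cKO replicate 3 the lowest for 5. Among controls, replicate 3 was the lowest for 6 of the 9 genes. The smallest count of any of the 9 genes in a library was 271 (Edn1 in control replicate 2) and the largest 27783 (Ece1 in cKO replicate 4).

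Reads shared with overlapping genes could matter where the library kit does not mark strand. Klf2, Klf4 and Thbd overlapped no other gene in the deposited annotation. Nos3 shared 294 bases with Atg9b on the opposite strand, which had 1307 counts in all libraries against 23135 for Nos3, and 17423 bases with Gm15587, which had 533. Piezo1 shared 1395 bases with Ctu2 (8699 counts against 62711, log2 fold change -0.04) and its whole span with Galnt2l, which had 0 counts. The genes overlapping Edn1, Ece1, Nfatc1 and Npr3 (Gm47118, Gm13012, Gm50211 and Gm5144) had 59, 96, 23 and 62 counts.

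Each gene was next measured against the endothelial markers of its own library, as its log2 CPM minus their mean log2 CPM, which asks whether it differed by more or less than the endothelial list did. By this ratio Klf2, Klf4 and Thbd, the genes whose own log2 fold changes were negative, were the furthest below the control mean in cKO. The ratio of Klf4 stood at -0.94, -0.26, -0.45 and -0.44 in cKO replicates 1 to 4, relative to the control mean, and at -0.09, -0.10, 0.21 and -0.01 in control replicates 1 to 4. All 4 cKO libraries were below all controls, with a difference of -0.52 (p = 0.0286 by a two-sided exact permutation test, which can give no smaller p with 4 libraries a group). Because the endothelial list was higher in cKO, a gene of unchanged level also falls by this ratio. Klf4 itself had a log2 fold change of -0.04, and 34.6% of all genes tested separated the groups in this direction.

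The ratio of Klf2 was -1.04, -0.62, -0.21 and -0.69 in cKO replicates 1 to 4 and 0.14, 0.07, 0.04 and -0.26 in control replicates 1 to 4, relative to the control mean. Only cKO replicate 3 reached the control range, through control replicate 4, and the difference was -0.64 (two-sided exact permutation test, p = 0.0571). Thbd had the same difference of -0.64 with a wider spread, from -1.27 in cKO replicate 1 to -0.07 in cKO replicate 2 (two-sided exact permutation test, p = 0.0571). Without cKO replicate 1 the difference was -0.51 for Klf2 and -0.44 for Thbd.

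Npr3 was the other gene without overlap in this ratio, with a difference of -0.34, from -0.56 in cKO replicate 4 to -0.07 in cKO replicate 3 (two-sided exact permutation test, p = 0.0286). The differences of Nfatc1, Nos3, Ece1 and Piezo1 were smaller, at -0.11, -0.21, -0.23 and -0.23, with an exact permutation p of 0.314, 0.2, 0.0571 and 0.0857. Edn1 alone had a positive difference, 0.21 (exact permutation test, p = 0.4). Single libraries moved some of these values: without cKO replicate 4 the difference was -0.09 for Nos3, -0.04 for Nfatc1 and 0.10 for Edn1. That of Nfatc1 was -0.18 without cKO replicate 2 and -0.07 without control replicate 3, and that of Edn1 was 0.08 without control replicate 2 and 0.32 without control replicate 3. These are 9 tests with unadjusted p-values. Since the endothelial list was higher in cKO, 34.6% of all genes tested separated the groups in the lower direction by this ratio and 0.295% in the higher direction, and 2 of the 9 did in the lower direction, Klf4 and Npr3.

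**Figure D4:**
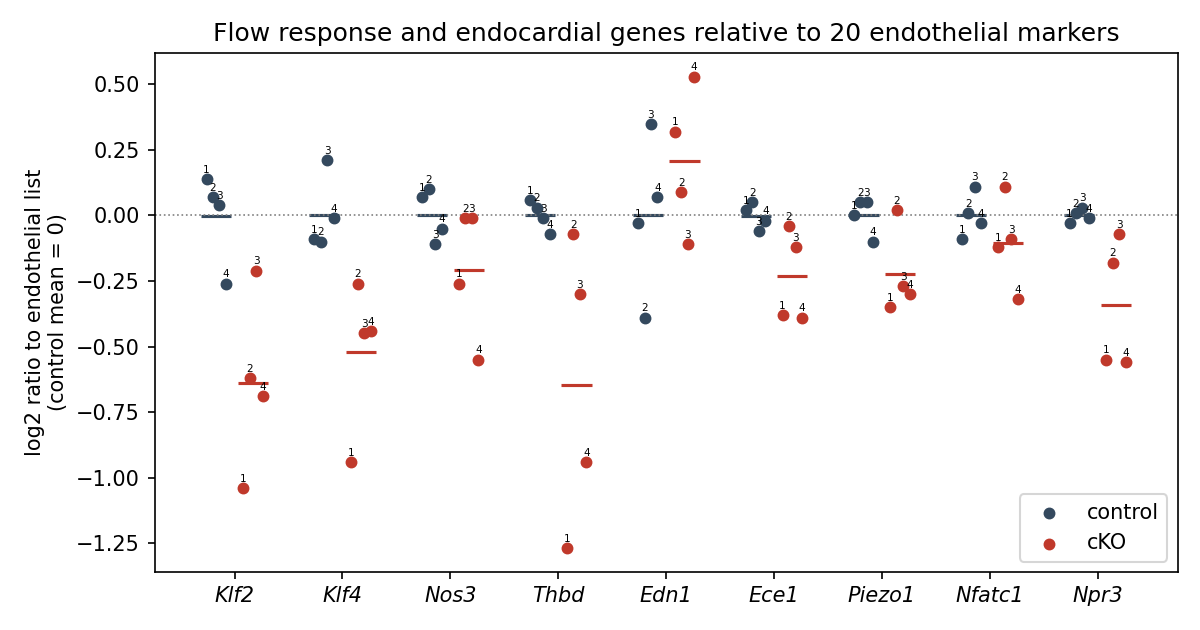
Log2 ratio of each gene to the mean of the 20 endothelial markers in the same library, with each gene's control mean set to 0, control libraries in dark blue, cKO libraries in red, replicate numbers beside the points and lines at the group means. Klf2, Klf4 and Thbd lie furthest below 0 in cKO, with differences of -0.64, -0.52 and -0.64, while Nfatc1 (-0.11) stays near it.

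Further genes of the same pathways were read from lists made by name. Across these lists 99 of 101 genes were tested, and 7 were called, 4 with higher and 3 with lower values in cKO, against 0.858%, 0.515% and 0.343% of all genes tested in either, the higher and the lower direction. Median log2 fold changes were 0.26 for the mechanosensors (11 of 14 positive), 0.29 for coagulation control (4 of 6), 0.14 for nitric oxide (7 of 11) and 0.12 for natriuretic peptides (5 of 7). They were 0.08 for calcineurin and NFAT (8 of 12), 0.04 for other flow-regulated genes (10 of 18), 0.04 for Krüppel-like factors (9 of 15), 0.03 for the cascade upstream of Klf2 and Klf4 (9 of 12) and -0.18 for endothelin (1 of 5), against -0.001 over all genes tested. The mechanosensor list shares Pecam1, Cdh5 and Kdr with the endothelial markers, whose median was 0.40, so the lists are not independent.

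The cascade upstream of Klf2 and Klf4 gave 0 calls among 12 genes by edgeR, as by DESeq2 and limma-voom, and 0 at an unadjusted p under 0.05, which 12.8% of all genes tested reached. Its log2 fold changes ran from -0.08 (Map2k5 and Krit1) to 0.13 for Heg1, the gene with most counts and an endothelial partner of the CCM proteins, at 195 ± 18.0 CPM across cKO libraries and 179 ± 6.79 CPM across controls (SD, n = 4 each). The kinase genes Map3k3 and Mapk7 and the factor genes Mef2a, Mef2c and Mef2d had values from 0.02 to 0.08.

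The wider Krüppel-like factor family also gave 0 calls among 15 genes by edgeR, DESeq2 and limma-voom. Klf3, its gene with most counts, was at 66.5 to 72.6 CPM across cKO libraries and 56.1 to 66.4 CPM across controls, with a log2 fold change of 0.18 (adjusted p = 0.213). At an unadjusted p under 0.05 it held 3 of 15, beside that 12.8% of all genes, namely Klf3, Klf7 (0.24) and Klf17, which was at 0 CPM in all cKO libraries and at most 0.0707 CPM in a control library.

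Among 14 mechanosensor genes, Pecam1 and Cdh5 rose. Pecam1 and Cdh5 encode junction proteins of the endothelial shear-sensing complex and are also endothelial markers. Cdh5 was at 306 ± 49.0 CPM across cKO libraries and 213 ± 29.5 CPM across controls, which is 0.53 higher on the log2 scale (SD, n = 4 each, edgeR adjusted p = 0.0303). Pecam1 was at 181 ± 35.2 and 129 ± 10 CPM, which is 0.48 higher on that scale (edgeR adjusted p = 0.0404). Piezo2, the relative of Piezo1, had a log2 fold change of 1.07 (adjusted p = 0.128), and Plxnd1, the gene with most counts of this list, one of 0.44 (adjusted p = 0.13). Piezo2 was low and overlapped, at 2.65 to 9.5 CPM across cKO libraries and 2.18 to 4.22 CPM across controls. Notch1 came closest to the threshold among the uncalled genes of this list (0.49, adjusted p = 0.0693, edgeR), also with overlap.

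Of 18 other flow-regulated endothelial genes, Pdgfb and Ccl2 rose and Vcam1 fell. Vcam1, an adhesion molecule of endothelium that is also made by embryonic myocardium, was at 50.9, 54.1, 52.8 and 52.4 CPM in cKO replicates 1 to 4. In control replicates 1 to 4 it was at 84.9, 91.9, 90.8 and 113 CPM. The cKO libraries differed by little among themselves and all lay far below the controls (log2 fold change -0.86, standard error 0.076, adjusted p = 7.5e-05).

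Pdgfb, which encodes a growth factor that endothelium and platelets release, was at 12.6, 5.78, 3.96 and 16.6 CPM in cKO replicates 1 to 4 and at 1.94 to 2.92 CPM in controls (log2 fold change 2.03, adjusted p = 0.00893). The chemokine gene Ccl2 was at 12.7, 4.86, 3.38 and 6.89 CPM in cKO replicates 1 to 4 and at 1.95 to 3.13 CPM in controls (log2 fold change 1.49, adjusted p = 0.0281). For both, cKO replicates 1 and 4 were the highest libraries and cKO replicate 3 the lowest of its group. Markers of megakaryocytes and platelets, 6 genes with none at 0 throughout a group, summed to 63.9, 50.8, 35.8 and 119 CPM in cKO replicates 1 to 4 and to 22 to 56.1 CPM in controls. The part of these cells and of macrophages in Pdgfb and Ccl2 was not tested.

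In the nitric oxide pathway, 1 of 11 genes was called. Gch1, whose enzyme makes the cofactor that nitric oxide synthases need, was at 6.57, 7.94, 7.86 and 6.46 CPM in cKO replicates 1 to 4 and at 11.8, 10.6, 10.2 and 10 CPM in control replicates 1 to 4. All cKO libraries were below all controls (log2 fold change -0.56, standard error 0.11, adjusted p = 0.0221), while Nos3 in the same libraries was above the controls. Ddah2, the gene with most counts of the list, which removes an inhibitor of nitric oxide synthase, had 103 ± 5.15 CPM across cKO libraries and 90.4 ± 2.39 CPM across controls, without overlap (SD, n = 4 each, log2 fold change 0.19, adjusted p = 0.115 by edgeR).

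In the natriuretic peptide system, 1 of 7 tested genes was called. Corin, the protease that activates the atrial peptide, was at 17.3, 21.1, 24.1 and 25.3 CPM in cKO replicates 1 to 4 and at 31.8, 37.0, 38.5 and 31.2 CPM in control replicates 1 to 4. It fell, with no overlap between groups (log2 fold change -0.66, standard error 0.11, adjusted p = 0.00808). The part of the lower ventricular cardiomyocyte markers in the Corin and Vcam1 values was not tested. Nppa, the gene of that peptide and the one with most counts in the list, was at 371 to 540 CPM across cKO libraries and 368 to 398 CPM across controls (log2 fold change 0.20, adjusted p = 0.351), and the receptor genes Npr1 and Npr2 had log2 fold changes of 0.15 and 0.12 (adjusted p = 0.565 and 0.619).

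**Figure D5:**
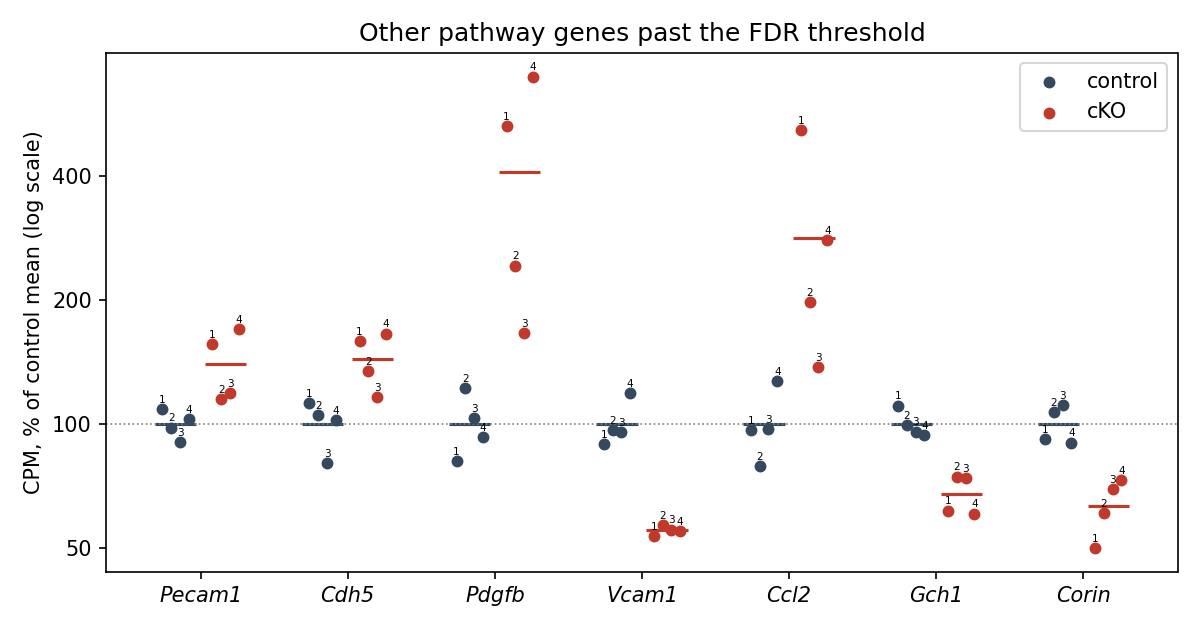
CPM of the 7 pathway genes past the threshold in each library, as a percentage of the gene's control mean on a log scale (dotted line at 100), with control libraries in dark blue, cKO libraries in red, replicate numbers beside the points and lines at the group means. Pecam1, Cdh5, Pdgfb and Ccl2 are above 100 in every cKO library, Vcam1, Gch1 and Corin are below it in every cKO library, and Vcam1 has the least spread among cKO libraries.

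The remaining lists held 0 calls by edgeR and limma-voom, and with DESeq2 F2r, F3, Plat and Pros1 passed. For the 6 tested genes around thrombomodulin and coagulation, F2r, the thrombin receptor gene and the one with most counts, came closest at 310 ± 63.4 against 227 ± 8.15 CPM (SD, n = 4 each, log2 fold change 0.45, adjusted p = 0.0583). Pros1, Plat and F2r were without overlap, all higher in cKO, while F3 had a negative log2 fold change of -0.67 (adjusted p = 0.12, edgeR). Among 5 other endothelin genes, the receptor gene Ednra was at 55.4 to 59.1 CPM across cKO libraries and 61.2 to 68.9 CPM across controls (log2 fold change -0.18, adjusted p = 0.166), and Ednrb at 76.9 to 134 CPM and 113 to 124 CPM (-0.13, adjusted p = 0.736). Edn2, Edn3 and Ece2 were under 1 CPM. Among 12 calcineurin and NFAT genes, Rcan1, with most counts and a target of NFAT, was at 156 ± 15.5 and 145 ± 11.1 CPM (log2 fold change 0.11, adjusted p = 0.612), and Nfatc2, Nfatc3 and Nfatc4 had log2 fold changes of 0.22, -0.06 and 0.18. At an unadjusted p under 0.05, again beside 12.8% of all genes, these lists held F2r, Pros1, Plat, Procr and F3 of the coagulation list, Ednra of the endothelin list, and Nfat5 and Ppp3r1 of the calcineurin list.

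Calls among the pathway genes varied in how far they held. Over 19 other fits, which include the 8 that leave out a library, Vcam1 was called in 18, Corin in 16, Pdgfb in 13, Gch1 in 11, Cdh5 and Ccl2 in 10 and Pecam1 in 8, each with its direction kept. Vcam1 and Corin kept their calls whichever library was left out. Pdgfb lost its call without control replicate 1 or 4 (adjusted p = 0.066 and 0.0566, edgeR). Gch1 and Ccl2 lost theirs without cKO replicate 1 or any 1 control library, and Pecam1 and Cdh5 also without cKO replicate 4.

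The genes most like each of the 9 in pattern were sought among 11235 genes with a mean of at least 5 CPM, by Pearson's r of log2 CPM over the 8 libraries. These r values are descriptions, and they share the difference between groups. With the group means removed, r ran from 0.881 (Nos3 with Ehbp1l1) to 0.992 (Thbd with Exog). The genes named are the best of 11235 over only 8 libraries, and such a selection raises r. Nfatc1 was closest to Nav3 (r = 0.994) and Zfp236 (0.992), of which Nav3 was itself called (log2 fold change 1.09, adjusted p = 0.00874 by edgeR). Edn1 was closest to Myc (0.987) and Trib1 (0.976), Ece1 to Atmin (0.987) and Notch1 (0.981), and Piezo1 to Col4a2 (0.987) and Pald1 (0.986).

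Nos3 was most like Ocel1 (r = 0.967) and Ehbp1l1 (0.944), and Npr3 most like Ftcd (0.975) and Nadsyn1 (0.961). The nearest patterns to Klf2 were those of Mtx1 (0.973) and Tob1 (0.965), to Klf4 those of Yy1 (0.962) and Hid1 (0.959), and to Thbd those of Exog (0.98) and Klhl25 (0.97).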

How the data were processed

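Ventricular RNA of 4 cKO and 4 control libraries was analysed. Each library had 1 column in a table of whole-number read counts by gene symbol, deposited without scaling, and 1 in a TPM table that the authors scaled by transcript length and library total. The paper names nf-core/rnaseq with GRCm39, and the submitters' processing notes also list Trim Galore 0.6.7, HISAT2 2.2.1, StringTie 2.2.1 and featureCounts. The TPM table as deposited gives gene positions on GRCm38, and the strand setting of the counting is not given in the sources used here. Genes summing to 8 counts or more over the libraries (26820) entered edgeR 4.0.16 in R 4.3.3 (TMM, condition only, log2 CPM with a prior count of 2). Standard errors were derived from the log2 fold change and F. DESeq2 1.42.0, limma 3.58.1, other scalings, filters and left-out libraries were alternatives, and fits were tested on simulated data. Permutation tests covered all 70 groupings. Named genes were the 9 genes, Pkn2, called or most counted pathway genes, overlapping genes and the 2 nearest in pattern, with further values given for genes of the same lists chosen after their values were seen. Some genes of the lists are not reported here. Members and lists were chosen with earlier results of these data known. The p-values measure the spread between these libraries.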

Additional observations from a re-analysis of the deposited data

Results flagged for a closer look

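Within a group, the gap between the most distant library and its neighbour was compared with the group's range by Dixon's criterion. Of 76 groups of 4 libraries examined (single genes and summed lists), 6 exceeded its critical value, and chance alone flags about 1 in 20. One of the 9 genes was among them: Npr3 was at 235 CPM in control replicate 3, with the other control libraries at 260 to 263 CPM, and its log2 fold change was 0.085 without that library. The others were summed marker lists. The 13 immediate early and heat shock genes reached 296 CPM in cKO replicate 4 (others 248 to 254 CPM). That library was also the highest of the cKO group for 6 of the 9 genes. The macrophage markers summed to 9.06 CPM in control replicate 2 (others 4.29 to 4.59 CPM), and the megakaryocyte and platelet markers to 56.1 CPM in the same library (others 22 to 26.2 CPM). In control replicate 1 the cushion mesenchyme markers were at 1470 CPM (others 1700 to 1750 CPM) and the hepatic markers at 42.1 CPM (others 14.8 to 17.8 CPM).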

How the results depend on the processing

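Of the 9 genes, 1 was called in the reported fit. The number was 2 with DESeq2 (Ece1 and Nfatc1), 4 with no filter on low counts (Edn1, Nfatc1, Nos3 and Piezo1), 0 with limma on TPM under each of the 3 settings tried, and 0 to 3 when a library was left out. Of the pathway genes, 7 were called, against 14 with DESeq2, 4 with limma-voom, 18 with no filter, 0 with limma on log2(TPM + 1), 1 with a pseudocount of 0.1, 1 with a mean TPM of at least 1, and 2 to 16 without single libraries. The cause of these shifts was not tested. Other scalings kept the reported number for the 9 genes and moved the median of genes above 5 CPM by less than 0.1 on the log2 scale. The Klf4 log2 fold change ran from -0.18 to 0.043 without single libraries, and no other direction turned among the 9 genes, their ratios to the endothelial list or the 7 called pathway genes. Of the 9, genes without overlap numbered 3 under each scaling, a count chosen after seeing the data. In the reported scaling 3.14% of all genes tested separated the groups in the higher direction. Without single libraries the count was 3 to 6, and it was 6 without cKO replicate 3. Smaller groups separate more readily, and no share over all genes was taken for them. The count of 6 therefore has no background to be read against. Among all genes tested, 230 were called, and 67 (without control replicate 1) to 744 (without cKO replicate 3) when a library was left out, with 867 by DESeq2, 878 with no filter and 1, 7 and 22 by limma on TPM.

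Same-numbered cKO and control libraries were not treated as paired, because the correlations of same-numbered libraries were -0.25, -0.04, 0.06 and -0.18 over 11244 genes. With the replicate number as a block, 2 of the 9 genes (Edn1 and Nfatc1) and 12 pathway genes were called, of 380 genes in all.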
